A study of Homo sapiens with 4 samples.

Results

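Ribosome footprints on 10 genes of the ATF4 stress axis were followed across 4 libraries of BJ-Ras-ER cells. The genes were taken by their Ensembl numbers from a list of ATF4, its relatives and genes known to respond to it. The rule itself uses no measured value, but the list was chosen with earlier results of these data known. Shares of the list set beside shares of all features are therefore descriptions of a list that was not chosen blind. The genes are 10 of the 57820 features in each count table. All 10 were among the 11128 nuclear features that were tested, those whose 4 libraries held 40 or more counts together. ATF3 passed that minimum through 1 library, since its sum was 65 counts and only 13 without proliferating GC7. BJ-Ras-ER cells are human BJ fibroblasts that express hTERT and an oncogenic H-Ras that 4-hydroxytamoxifen (4-OHT) switches on, so all 4 libraries share both transgenes. Proliferating cells (0 nM 4-OHT) and cells in oncogene-induced senescence (OIS, 100 nM 4-OHT for 12 days) each received either the solvent DMSO or 10 µM GC7 for 18 h, and each of the 4 conditions is 1 library. GC7 inhibits deoxyhypusine synthase, the enzyme that starts the hypusine modification of the translation factor eIF5A.

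In the integrated stress response, kinases that sense amino acid shortage, misfolded proteins or other stress phosphorylate the initiation factor eIF2, which lowers general initiation. A few mRNAs with short reading frames ahead of their main frame, ATF4 and ATF5 among them, are then translated better. ATF4 is a basic leucine zipper transcription factor that pairs with C/EBP proteins and switches on genes for amino acid supply, feedback and, when stress persists, cell death. In ribosome profiling the mRNA pieces shielded by ribosomes are sequenced, and no RNA-seq library was used here, so a change in mRNA level and a change in ribosome occupancy cannot be told apart. The counts are totals per gene and keep no position, so footprints on a leader and on the main reading frame were counted together.

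The total counts ran from 3039026 in OIS DMSO to 6553835 in proliferating GC7. The share taken by mitochondrial features was 2.89% in proliferating DMSO and 12.2% in OIS DMSO. With GC7 it was far lower in both states, 0.0281% in proliferating and 0.141% in OIS cells, and the cause of this gap was not tested. Mitochondrial features were therefore left out of the scaling and of the tests. The treatment entry and the title of 2 libraries, proliferating GC7 and OIS DMSO, name different treatments. The titles were followed because each state needs a DMSO and a GC7 library in this design, and the names of the alignments in the tables bear them out. The cell type was not checked against fibroblast markers, since no table used here pairs the Ensembl numbers of other genes with names. With 1 library per condition there is no spread between replicates, and the 95% intervals below cover counting error only.

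The proximal promoters of 4 of the genes are shown because they either hold the element that ATF4 and C/EBP proteins share, or belong to DDIT3 and DDIT4, which passed the test for GC7 described further on. TRIB3 passed it too but is not shown, as its windows lie inside the annotated gene. The sequences are the 250 bases before an annotated gene start, from RefSeq on GRCh38.p14, written along the gene's strand. ATF3 and DDIT3 have 2 such starts each, and the bases before 1 of them are shown. Capitals mark matches on either strand to TGATGNAAN (a C/EBP-ATF response element), TGANTCA (an AP-1 element), CCAAT (the box bound by the factor NF-Y) and CCACG (the latter part of the endoplasmic reticulum stress response element).
CHAC1, chr15:40953221-40953470, plus strand: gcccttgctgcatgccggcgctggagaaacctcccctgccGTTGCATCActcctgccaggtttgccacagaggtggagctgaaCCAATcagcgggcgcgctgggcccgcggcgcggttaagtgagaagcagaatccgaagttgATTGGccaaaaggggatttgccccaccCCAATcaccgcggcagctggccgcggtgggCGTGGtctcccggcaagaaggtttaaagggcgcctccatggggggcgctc
ATF3, chr1:212565157-212565406, plus strand: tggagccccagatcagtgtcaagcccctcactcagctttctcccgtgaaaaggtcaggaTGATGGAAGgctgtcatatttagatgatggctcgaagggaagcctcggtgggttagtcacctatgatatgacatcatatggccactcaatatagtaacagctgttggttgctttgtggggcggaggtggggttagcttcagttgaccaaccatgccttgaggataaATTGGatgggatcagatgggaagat
DDIT3, chr12:57520518-57520767, minus strand: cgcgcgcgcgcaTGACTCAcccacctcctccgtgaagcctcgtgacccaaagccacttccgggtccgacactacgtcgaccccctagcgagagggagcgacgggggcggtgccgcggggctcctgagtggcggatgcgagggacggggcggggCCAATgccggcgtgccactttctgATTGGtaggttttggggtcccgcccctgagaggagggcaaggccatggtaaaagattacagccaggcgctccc
DDIT4, chr10:72273674-72273923, plus strand: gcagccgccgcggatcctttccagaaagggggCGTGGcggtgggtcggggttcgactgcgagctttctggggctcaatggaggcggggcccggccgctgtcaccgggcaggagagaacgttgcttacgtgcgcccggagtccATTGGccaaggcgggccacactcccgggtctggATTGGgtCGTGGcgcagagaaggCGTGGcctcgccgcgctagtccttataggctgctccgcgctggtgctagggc

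All 10 genes had at least 1 entry in the promoter table, with 18 windows of 300 bases in all, each reaching from 250 bases before to 50 after a start. TGATGNAAN was found in 2 of the 10 genes, ATF3 and CHAC1, against 4.45% of the 27305 genes in the table. A gene was counted if any of its windows held a match, and for ATF3 that was 1 of 2 windows. The match in CHAC1 lay 210 bases before the start on the minus strand and contains TTGCATCA, a form present in 1.08% of genes, while the match in ATF3 began 191 bases before the start. The cAMP response element TGACGTCA was in none of the 10 and in 2.25% of genes. TGANTCA was in ATF5, in 1 of its 3 windows, and in both windows of DDIT3, against 9.37% of genes. The short words CCAAT and CCACG were common everywhere, in 7 of 10 and 6 of 10 of these genes against 39.7% and 42.1% of all genes. The other 8 genes, TRIB3, DDIT4 and DDIT3 among them, had no TGATGNAAN in these windows. A match describes letters only, and its absence says nothing about binding elsewhere.

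Together the 10 genes took 2947 counts in DMSO and 19729 with GC7 in proliferating cells, and 2723 and 7869 in OIS cells. As a share of nuclear counts this was 0.0702% (95% exact binomial interval 0.0677 to 0.0728) in proliferating DMSO and 0.301% (0.297 to 0.305) in proliferating GC7. In OIS cells the share was 0.102% (0.0982 to 0.106) in DMSO and 0.162% (0.159 to 0.166) with GC7. The group thus took more of the footprints with GC7 in both states, and proliferating GC7 stood above the other 3 libraries. STC2 supplied 39.9% to 56.8% of these counts, depending on the library, so the sum leans on 1 gene and the genes are described singly below.

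**Figure D1:**
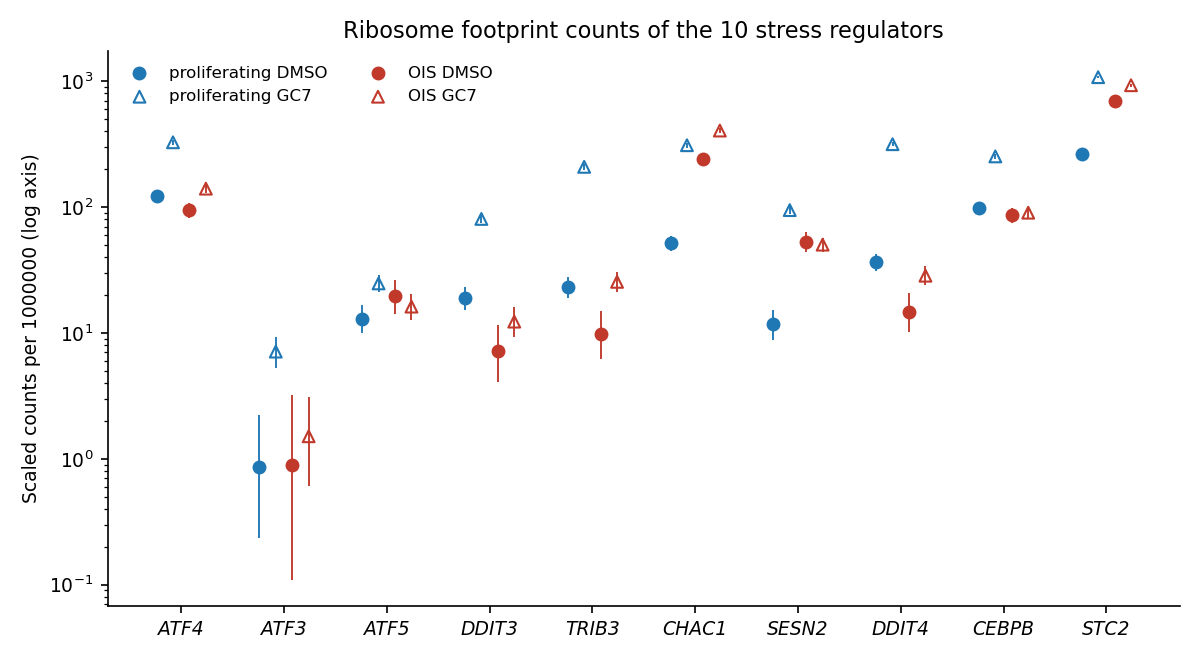
Scaled counts per 1000000 (log axis) of the 10 genes in each of the 4 libraries, with 95% exact Poisson intervals as bars; filled circles are DMSO, open triangles GC7, blue proliferating and red OIS. Proliferating GC7 is the highest of the 4 libraries for every gene except CHAC1, which is highest in OIS GC7.

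GC7 against DMSO in proliferating cells asked how these genes responded to the inhibitor in dividing cells. Of the 10 genes, 9 were at least 2-fold higher with GC7 with an interval that left out equal levels, and none was lower. The same rule called 3.46% of all 11128 features higher and 2.08% lower. The median of the 10 log2 ratios was 2.34, a 5.05-fold difference, beside a median of 0.02 over all features. Without ATF3 the count was 8 of 9 and the median 2.08. Log2 ratios are of scaled counts with a prior count of 1 throughout, and a pair of single libraries allows no p-value.

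Among the transcription factors, ATF4 itself (ENSG00000128272.10, chr22:39915700-39918691, plus strand, in hg19 as for all genes below) had 561 counts in DMSO and 2392 with GC7 in proliferating cells, and 211 and 649 in OIS cells. As scaled counts per 1000000 (scaled CPM) these became 122, 327, 94.1 and 140, so the proliferating GC7 library stood well above the other 3. The log2 ratio for GC7 in proliferating cells was 1.42 (1.29 to 1.56), or 2.68-fold. Its rank was 190 from the top of the 11128 features.

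CEBPB (ENSG00000172216.4, chr20:48807376-48809212, plus strand) encodes C/EBPβ, a leucine zipper protein that can pair with ATF4. It had 454 and 1848 counts in proliferating DMSO and GC7, and 193 and 418 in OIS DMSO and GC7. As scaled CPM these were 98.4, 252, 86.1 and 90.2, with 3 libraries close together and proliferating GC7 alone above them. The log2 ratio in proliferating cells was 1.36 (1.21 to 1.51).

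DDIT3 (ENSG00000175197.6, chr12:57910371-57914300, minus strand) encodes CHOP, a C/EBP-family factor known for promoting cell death under lasting endoplasmic reticulum stress. It had 87, 589, 16 and 57 counts in proliferating DMSO, proliferating GC7, OIS DMSO and OIS GC7. The log2 ratio for GC7 in proliferating cells was 2.08 (1.77 to 2.43). A feature on the opposite strand with 9285 counts overlaps 30.1% of the exonic bases of DDIT3, and the count tables do not state whether strand was used, so reads in that stretch cannot be told apart.

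ATF3 (ENSG00000162772.12, chr1:212738676-212794119, plus strand), a stress-induced leucine zipper factor that is itself a target of ATF4, was scarce, with 4, 52, 2 and 7 counts in the same order. Its ratio of 2.81 in proliferating cells had the widest interval of the 10 genes, 1.59 to 4.96. ATF5 (ENSG00000169136.4, chr19:50431959-50437192, plus strand), a factor whose mRNA also carries short upstream reading frames, had 60, 181, 44 and 75 counts. Its log2 ratio in proliferating cells was 0.92 (0.50 to 1.37), which was 1.89-fold and the only one of the 10 under the 2-fold limit. Other features overlap 23.7% of the exonic bases of ATF5 and hold 986 counts, so its counts may be shared.

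TRIB3 (ENSG00000101255.6, chr20:361261-378203, plus strand) encodes a pseudokinase that feeds back on ATF4 and binds the kinase AKT. It had 106 and 1527 counts in proliferating cells without and with GC7, and 22 and 118 in OIS cells. The ratio in proliferating cells was the largest of the 10, at 3.17 (2.90 to 3.48), or 9.02-fold, and ranked 11 of 11128 features.

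A pair of genes on the list encode brakes on the growth kinase complex mTORC1. DDIT4 (ENSG00000168209.4, chr10:74033678-74035794, plus strand), also called REDD1, acts through the TSC complex. It had 168, 2310, 33 and 132 counts in proliferating DMSO, proliferating GC7, OIS DMSO and OIS GC7, and its log2 ratio in proliferating cells was 3.11 (2.89 to 3.35), rank 14. A feature on the opposite strand covers 41.2% of its exonic bases but held 0 counts. SESN2 (ENSG00000130766.4, chr1:28586038-28609002, plus strand), a leucine sensor that restrains mTORC1, had 54, 692, 118 and 233 counts in the same order. Its log2 ratio in proliferating cells was 2.995 (2.61 to 3.44), rank 15. Both genes were thus about as far up as TRIB3, with intervals that overlap its own.

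CHAC1 (ENSG00000128965.7, chr15:41245160-41248710, plus strand) encodes an enzyme that breaks down glutathione. It had 237 and 2267 counts in proliferating cells without and with GC7, and 538 and 1878 in OIS cells. The log2 ratio in proliferating cells was 2.59 (2.40 to 2.79), or 6.01-fold. STC2 (ENSG00000113739.6, chr5:172741716-172756506, minus strand), which encodes the secreted glycoprotein stanniocalcin 2, had 1216, 7871, 1546 and 4302 counts in the same order. Its ratio in proliferating cells was 2.03 (1.94 to 2.12), with the narrowest interval of the 10 because it had the most counts.

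In OIS cells the same inhibitor gave smaller ratios. TRIB3 was the only 1 of the 10 genes called higher with GC7 and none was called lower, beside 3.53% and 2.75% of all features. Its scaled CPM was 9.81 in OIS DMSO and 25.5 in OIS GC7, a log2 ratio of 1.35 (0.71 to 2.10). The median of the 10 log2 ratios was 0.59, or 1.504-fold, against 0.01 for all features.

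Under the 2-fold limit, 4 more genes had intervals wholly above 0: DDIT4 at 0.94 (0.39 to 1.55), CHAC1 at 0.75 (0.62 to 0.90), ATF4 at 0.57 (0.35 to 0.80) and STC2 at 0.43 (0.34 to 0.51). With TRIB3 that made 5 of 10 genes, beside 1707 of the 11128 features. The log2 ratio of DDIT3 was 0.76 (−0.04 to 1.68) and that of ATF3 0.61 (−1.63 to 4.06), both with too few counts to leave out equal levels. CEBPB at 0.07 (−0.18 to 0.32), SESN2 at −0.07 (−0.39 to 0.27) and ATF5 at −0.27 (−0.83 to 0.29) lay close to 0, and that of SESN2 became 0.12 with total count scaling.

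**Figure D2:**
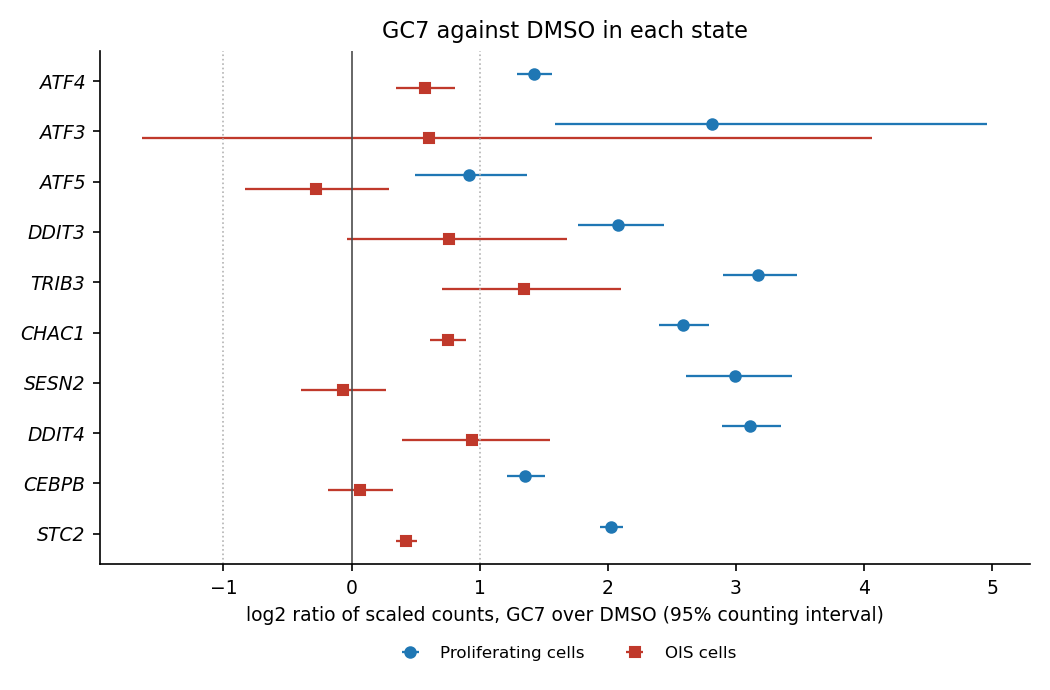
Log2 ratios of scaled counts, GC7 over DMSO, for the 10 genes in proliferating cells (blue circles) and OIS cells (red squares), with 95% counting intervals as bars and dotted lines at a 2-fold difference either way. Every blue point lies to the right of the red point of the same gene, and the intervals of ATF3 are the widest.

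The GC7 ratio in OIS minus that in proliferating cells was below 0 for all 10 genes. For 9 of them, all except ATF3, the counting interval of this difference lay wholly below 0, beside 16.8% of all features. The median difference was −1.71 over the 10 genes and −0.01 over all features. Without ATF3, whose high proliferating GC7 count both carried it past the filter and set the sign of its difference, the median was −1.60 over 9 genes. SESN2 had the largest difference, −3.06 (−3.57 to −2.55), and ranked 22 from the bottom of the 11128 features. ATF3 was at −2.21 with an interval that reached 0.28, DDIT4 at −2.17 (−2.76 to −1.58), CHAC1 at −1.83 (−2.07 to −1.60) and TRIB3 at −1.82 (−2.53 to −1.11). The smallest was that of ATF4 at −0.85 (−1.11 to −0.59). With 4 libraries and 4 conditions no residual spread is left, so these differences carry no test.

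**Figure D3:**
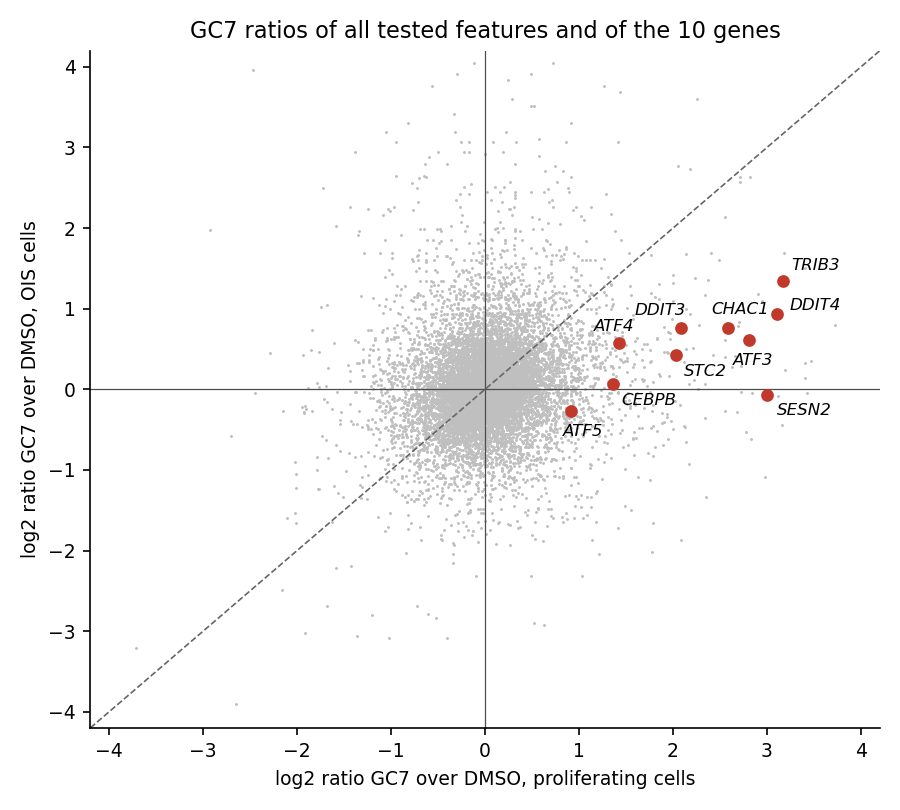
Log2 ratio of GC7 over DMSO in proliferating cells (x axis) against OIS cells (y axis) for all 11128 tested features (grey points, with 22 outside the axes) and the 10 genes (red, named); the dashed line marks equal ratios. All 10 genes lie below the dashed line and to the right of the vertical line at 0, while SESN2 and ATF5 lie just under the horizontal line at 0.

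Over both states together, GC7 was tested with an additive model of treatment and state on all 4 libraries. By edgeR's quasi-likelihood test with Benjamini-Hochberg adjustment over all 11128 features, 3 of the 10 genes rose with GC7 and none fell, beside 0.144% (16 features) and 0.243% (27 features) of all. They were TRIB3 (log2 fold change 2.59, SE 0.35, adjusted p = 0.00344), DDIT4 (2.33, SE 0.39, adjusted p = 0.0181) and DDIT3 (1.70, SE 0.31, adjusted p = 0.0358). The test gives no standard error, so SE here and below is the size of the log2 fold change divided by the square root of the test's F value. The model takes the GC7 ratio to be the same in both states, which the pairs of libraries do not show. TRIB3 was at 3.17 in proliferating and 1.35 in OIS cells, DDIT4 at 3.11 and 0.94, and DDIT3 at 2.08 and 0.76. Of these genes only TRIB3 was called higher in OIS cells, so the fitted values do not show a rise in each state. CHAC1 had a log2 fold change of 1.65 with an edgeR adjusted p of 0.0778, and ATF4 1.02 with an adjusted p of 0.122. The log2 fold changes of STC2, SESN2 and ATF3 were 1.23, 1.42 and 2.35, and those of CEBPB and ATF5 were 0.74 and 0.38, with edgeR adjusted p between 0.227 and 0.755. Before adjustment 9 of the 10 had p under 0.05 by the same test, all higher with GC7, the exception being ATF5. At that threshold 516 (4.64%) of the 11128 features were higher and 559 lower. The additive model has 1 residual degree of freedom, which also holds the gap between the states, and the count of 3 was 1 with DESeq2 (TRIB3), 1 or 8 with other count minimums and 0 in the fit without the other factor.

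OIS against proliferating cells in DMSO asked how these genes differed between senescent and dividing cells, and it divided the list. CHAC1, SESN2 and STC2 were higher in OIS, and DDIT3, DDIT4 and TRIB3 lower, 3 each way, beside 14% and 12.6% of all features. The 10 ratios had a median of −0.08. With total count scaling the median was −0.42 and STC2, at 0.999, fell just short of the limit, which left 2 genes higher.

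CHAC1 went from 51.4 scaled CPM in proliferating DMSO to 240.0 in OIS DMSO, a log2 ratio of 2.22 (2.0 to 2.45). SESN2 went from 11.7 to 52.6 (2.14, 1.69 to 2.66) and STC2 from 264 to 690 (1.39, 1.28 to 1.497). SESN2 and DDIT4, both restraints on mTORC1, therefore differed in opposite directions. DDIT4 was at 36.4 in proliferating DMSO and 14.7 in OIS DMSO, a log2 ratio of −1.29 (−1.89 to −0.76). DDIT3 stood at −1.37 (−2.27 to −0.62) and TRIB3 at −1.20 (−1.96 to −0.56). ATF4 at −0.37 (−0.61 to −0.14), CEBPB at −0.19 (−0.44 to 0.05) and ATF5 at 0.58 (−0.002 to 1.18) stayed under the limit, and ATF3, with 4 and 2 counts, had a ratio of 0.03 (−3.43 to 2.84) that became −0.26 with total count scaling.

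With GC7 in both states, 6 of the 10 genes were lower in OIS than in proliferating cells and none was higher, beside 11.6% and 12% of all features. The median of the log2 ratios was −1.35, against −0.01 over all features. Without ATF3, which was tested only through its proliferating GC7 count, 5 of 9 were lower and the median was −1.22. DDIT4 had the largest gap, 316 scaled CPM against 28.5, a log2 ratio of −3.46 (−3.73 to −3.22) or 11.03-fold lower. TRIB3 stood at −3.03 (−3.32 to −2.76), DDIT3 at −2.69 (−3.13 to −2.32), ATF3 at −2.12 (−3.62 to −1.09), CEBPB at −1.48 (−1.64 to −1.33) and ATF4 at −1.22 (−1.35 to −1.10). SESN2 at −0.91 (−1.13 to −0.70), ATF5 at −0.61 (−1.02 to −0.22) and STC2 at −0.21 (−0.27 to −0.16) were under the 2-fold limit with intervals below 0. CHAC1 alone had a ratio above 0, at 0.39 (0.30 to 0.48). The GC7 and the state comparisons use the same 4 libraries, so they are not separate evidence.

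**Figure D4:**
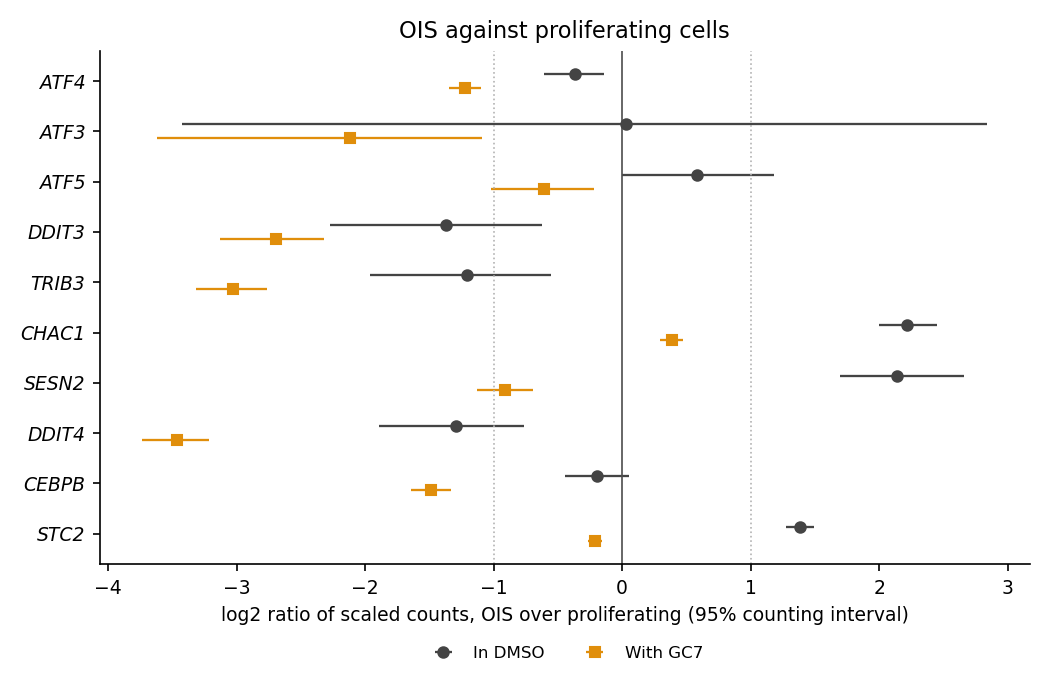
Log2 ratios of scaled counts, OIS over proliferating cells, for the 10 genes in DMSO (dark circles) and with GC7 (orange squares), with 95% counting intervals as bars and dotted lines at a 2-fold difference. CHAC1, SESN2 and STC2 stand to the right in DMSO, and CHAC1 is the only gene to the right of 0 with GC7.

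In the additive model, 5 genes were lower in OIS by edgeR's quasi-likelihood test with Benjamini-Hochberg adjustment and 1 was higher, beside 14.5% of all features lower and 18% higher. The model takes the state difference to be the same in DMSO and with GC7, which the pairs of libraries do not show. CEBPB was at −0.19 in DMSO and −1.48 with GC7, ATF4 at −0.37 and −1.22, and SESN2 at 2.14 and −0.91. The values below are therefore fitted over both treatments and are not differences of untreated cells. Nor are they plain averages: ATF3, at 0.03 in DMSO and −2.12 with GC7, was fitted at −1.71. DDIT4 fell by 2.66 on the log2 scale (SE 0.39, adjusted p = 0.000269), TRIB3 by 2.45 (SE 0.34, adjusted p = 0.000186) and DDIT3 by 2.28 (SE 0.31, adjusted p = 0.000159). The factors CEBPB, with −0.87 (SE 0.27, adjusted p = 0.027), and ATF4, with −0.82 (SE 0.23, adjusted p = 0.0165), fell less. CHAC1 rose, with 1.26 (SE 0.34, adjusted p = 0.0132). The calls of DDIT4, CEBPB and CHAC1 were lost with the DESeq2 Wald test, and those of ATF4, CEBPB and CHAC1 in the fit without the other factor. The remaining edgeR values were −1.71 for ATF3 (adjusted p = 0.123), 0.58 for STC2 (0.195), 0.38 for SESN2 (0.603) and −0.08 for ATF5 (0.862).

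Levels were also set against each other per kilobase of exon, as scaled CPM per kilobase. The divisor was all exonic bases, coding or not, from 1178 for DDIT3 to 6128 for STC2. The order between genes therefore also depends on the length of their untranslated parts. In proliferating DMSO the order began with CEBPB at 53.6 (48.8 to 58.8), ATF4 at 48.4 (44.4 to 52.5) and STC2 at 43.0 (40.6 to 45.5), where each interval overlapped the next. CHAC1 at 25.1, DDIT4 at 17.7, DDIT3 at 16.0, TRIB3 at 7.80, ATF5 at 4.404 and SESN2 at 3.39 followed, and ATF3 was last at 0.217. DDIT4 and DDIT3 overlapped, as did ATF5 and SESN2. Among all tested features on this scale, 92.3% were below CEBPB and 1.37% below ATF3.

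With GC7 in proliferating cells, the level of STC2 was 175, of DDIT4 153, of CHAC1 151, of CEBPB 137 and of ATF4 130 scaled CPM per kilobase. DDIT4 had passed ATF4, while the intervals of DDIT4 and CHAC1 overlapped, and so did those of CEBPB and ATF4. TRIB3 at 70.8 and DDIT3 at 68.3 overlapped as well, ahead of SESN2 at 27.4, ATF5 at 8.37 and ATF3 at 1.77.

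In OIS DMSO, CHAC1 at 117 and STC2 at 113 led with overlapping intervals, followed by CEBPB at 46.9 and ATF4 at 37.4, which overlapped too. SESN2 stood at 15.2, and DDIT4 at 7.15, ATF5 at 6.64, DDIT3 at 6.06 and TRIB3 at 3.33 had intervals that each overlapped the next, with ATF3 at 0.223. With GC7 in OIS cells CHAC1 reached 198 and stood apart from STC2 at 151. ATF4 at 55.7 and CEBPB at 49.1 came next, then SESN2 at 14.6, DDIT4 at 13.8, DDIT3 at 10.4 and TRIB3 at 8.63, each overlapping its neighbour, ahead of ATF5 at 5.48 and ATF3 at 0.377. CHAC1 led in both OIS libraries and ATF3 was last in all 4.

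The gene whose pattern over the 4 libraries was most like that of ATF4 was sought among 8252 other features with at least 200 counts in all, by the distance between their log2 scaled counts after centring each feature over the libraries. The nearest was ENSG00000100219.12, at a distance of 0.19, with 303 and 1361 counts in proliferating cells without and with GC7, and 133 and 404 in OIS cells. ENSG00000121644.14 was next at 0.23. Of the listed genes CEBPB was nearest, at rank 15 and a distance of 0.36. ATF5 was at rank 1324, and the other 6 with at least 200 counts lay between rank 2936 (DDIT3) and 7274 (CHAC1). This likeness rests on 4 libraries and is a description only.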

How the data were processed

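Per the submitters' processing notes, reads were aligned to hg19 with STAR version 2.5.3a and counted with featureCounts version 1.5.1 over the genes of GENCODE version 19. The authors deposited whole-number counts per gene without normalization, 1 table per library. For trimming and for the options on strand and overlapping features, nothing is stated in those sources. The genes, lists and comparisons were chosen with earlier results of these data known. Names of the 10 genes came with the list of Ensembl numbers. A wider list of ATF4 pathway genes and lists of cell type markers have no result, since no table used here pairs other numbers with names, so a rule for named genes gave Ensembl numbers only for the 2 features most like ATF4.

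Nuclear features whose 4 counts summed to 40 or more were scaled with TMM (edgeR version 4.0.16, R version 4.3.3). Log2 ratios used a prior count of 1, and a gene was called higher or lower at 2-fold or more when the 95% exact conditional binomial interval left out equal levels. Intervals of levels are exact Poisson intervals, and those of differences between ratios came from the variances of the 4 counts. The additive fit used edgeR's quasi-likelihood test with an adjusted p under 0.05. DESeq2 version 1.42.0, other scalings, filters, a prior count of 5 and a limit of 1.5-fold were alternatives. Both procedures were run on simulated data, the pairs with counting noise only and the additive fit with a fixed spread and no difference between states. Those runs check the calculations and do not cover an unknown spread between replicates or GC7 ratios that differ between states. PCR duplicates may remain, so intervals cover counting error only, and total counts of 3039026 to 6553835 set their width.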

Additional observations from a re-analysis of the deposited data

Results flagged for a closer look

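The GC7 ratios of SESN2 and ATF5 had opposite signs in the 2 states. For SESN2 the ratio in OIS minus that in proliferating cells was −3.06, from 2.995 in proliferating and −0.07 in OIS cells. For ATF5 it was −1.19, from 0.92 in proliferating and −0.27 in OIS cells. With 1 library per condition the difference between the states was not tested, and both OIS intervals include 0. With total count scaling the OIS ratio of SESN2 became 0.12.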

How the results depend on the processing

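No ratio or count of the 10 genes was reversed past the limit under the alternatives run. Of the counts and medians over the genes, 116 stayed within a set margin and 11 moved beyond it. For a count the margin was 1.5-fold of the main value. For a median it lay between the medians of the lower and upper interval bounds in the main run. Some values among the 116 therefore did change. For GC7 in proliferating cells the number called higher was 8 to 10 and the median log2 ratio 2.08 to 2.41. For GC7 in OIS cells total count scaling called 2 and a 1.5-fold limit 3 where 1 was called. Total count scaling moved the median of OIS against proliferating cells with GC7 to −1.58. In the additive fit for GC7, where 3 genes rose, the DESeq2 Wald test and a minimum of 400 counts (8 genes tested) each left 1, TRIB3, a minimum of 1 count gave 8 and the fit without the other factor 0, at 1 gene with an unadjusted p under 0.05. For state, the DESeq2 Wald test and the fit without the other factor each called 3 lower, and 0 higher also at an unadjusted p under 0.05.

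Total count scaling shifted the median of all features by 0.18 for GC7 in OIS cells, −0.38 for the states in DMSO and −0.22 for the states with GC7. It moved the share of higher among called features from 56.2% to 77.7%, from 52.8% to 27.5% and from 50.9% to 33.8%, and upper quartile scaling shifted the DMSO comparison by −0.11. Small ratios changed sign: SESN2 for GC7 in OIS cells became 0.12 and ATF3 between the states in DMSO −0.26 (total count) and −0.06 (upper quartile), while the state value of SESN2 became −0.07 without the other factor. Leaving out ATF3 was added after seeing the data. A motif window of the 250 bases before the start gave the same genes. Counts per residue were not run, as no protein sequences were used. No paired analysis was possible because each condition has 1 library. Depth limits ATF3 most, at 2 to 52 counts.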
